A study of Mus musculus with 66 samples.

Results

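*Cdkn1a*, *Htra1*, *Daam2* and *Paqr8* are 4 of the 45706 gene identifiers measured in the nervous system of spontaneous *Rorb* mutant mice. They were chosen because their values were lower than in wild-type mice in several mutant groups of brain and spinal cord, so their differences in those 10 comparisons are given here as a description, with no test. The question addressed is how the 4 genes vary between tissues, strains and dissected brain regions, and whether they rise and fall together in single animals. PolyA mRNA was sequenced from 66 libraries of 30 mice in 20 groups of 3 or 4 mice, of both labelled sexes in each group.

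Brain hemi-sections and spinal cords were taken from the same 24 mice, namely C57BL/6J, *Rorb h1/h1*, DBA/1J and *Rorb h5/h5* groups of 3, and groups of 4 for the *Rorb* alleles h4, h3 and h2. Cortex, hippocampus and cerebellum came from 3 DBA/1J and 3 *Rorb h5/h5* mice of another set, aged 7.0 weeks. *Rorb* encodes ROR beta, a nuclear receptor that acts as a transcription factor. The h1 allele is a duplication upstream of *Rorb* that takes in the first exon of the *Rorb1* transcript, and it arose on C57BL/6J. The h2 and h3 alleles arose on the albino strain B6(Cg)-Tyr c-2J/J, and no change in the coding sequence is named for them. The h4 allele brings a premature stop codon into *Rorb* and arose on the B6.129S7-Il1r1 tm1/mx/J strain, which carries an *Il1r1* mutation. The h5 allele changes the start codon of *Rorb1* and arose on DBA/1J. All mutants were homozygous, each allele was kept as a line of its own, and the controls were wild type for *Rorb* by their labels. The mice were 8.0 weeks old in the C57BL/6J and h1 groups, 7.9 to 9.4 weeks in h2, 8.0 to 9.6 weeks in h3, 8.4 to 8.6 weeks in h4, 8.4 to 8.9 weeks in DBA/1J and 8.4 to 8.7 weeks in h5.

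The libraries held between 32889755 and 59120536 counts (median 42391892.5), and all 4 genes had counts in all 66 libraries, with at least 134 for *Cdkn1a*, 2408 for *Htra1*, 2680 for *Daam2* and 3715 for *Paqr8*. The h1 to h4 groups were compared with the same 3 C57BL/6J mice. The animal identifiers of h2, h3 and h4 are of other series than those of C57BL/6J and h1, so that allele, background strain and identifier series cannot be told apart in these comparisons, whereas DBA/1J and h5 share their series in part. As to the mutated gene, the log2 fold change of *Rorb* in brain was -0.60 in h1, -0.91 in h2, -0.05 in h3, -2.10 in h4 and 0.40 in h5, and in spinal cord -0.28, -0.72, -0.02, -2.21 and 0.24 in the same order. Marker genes of cerebellum summed to 1.97 TPM (a level scaled to transcript length and library total) in the brain of DBA/1J replicate 1, against 347 and 354 TPM in the other DBA/1J brains, so comparisons with DBA/1J brain are also given without that library. Replicate 3 of the h5 dissected regions is labelled female, but its cortex, hippocampus and cerebellum held 57.8, 71.3 and 86.2 CPM (counts scaled to the library total) of *Ddx3y*, a Y-linked gene, and at most 0.32 of *Xist*, which the inactive X chromosome expresses. The h5 comparisons, their interactions and the covariation in the dissected regions are therefore given with and without it. The p-values of the comparisons below set a difference against the spread between the mice of a group. Comparisons and interactions between tissues take several libraries from the same mice, which the printed fits do not pair. The permutation p-values of the covariation concern the association of deviations.

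The 4 genes belong to separate pathways. *Cdkn1a* encodes p21, an inhibitor of cyclin-dependent kinases that p53 and several stress signals induce, and that holds cells out of division. *Htra1* encodes a secreted serine protease that cleaves matrix proteins and dampens TGF-beta signalling. In the brain *Htra1* is known for astrocyte expression. *Daam2* encodes a formin, which nucleates actin filaments and binds Dishevelled in Wnt signalling, and in glia it is known for its part in oligodendrocyte differentiation. *Paqr8* encodes membrane progestin receptor beta, a receptor of the progestin and adipoQ receptor family that is found in the brain.

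All 4 genes were matched to the RefSeq promoter table of GRCm38.p6. *Cdkn1a* (ENSMUSG00000023067) lies on the + strand at chr17:29090979-29100722. *Htra1* (ENSMUSG00000006205) lies on the + strand at chr7:130936203-130985658. *Daam2* (ENSMUSG00000040260) lies on the - strand at chr17:49456022-49564459 and overlaps the predicted gene *Gm52301*. *Paqr8* (ENSMUSG00000025931) lies on the + strand at chr1:20890548-20939650 and overlaps *Gm24171* and *Gm51618*. Counts on *Daam2* and *Paqr8* may thus include reads of these overlapping genes.

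The table holds 7 start sites for the 4 genes, and and 6 of their 250-base upstream windows hold letters of a motif that was searched. Those shown are 5 of the 6, since the other, a second *Daam2* start at chr17:49564311-49564560, overlaps the *Daam2* window shown and holds the same matches. The windows are chr17:29093519-29093768 on the + strand (*Cdkn1a*), chr7:130935953-130936202 on the + strand (*Htra1*), chr17:49564338-49564587 on the - strand (*Daam2*), and chr1:20890298-20890547 and chr1:20917590-20917839 on the + strand (*Paqr8*, the upstream and the downstream start). Capitals mark matches on either strand to AGGTCA, the core that nuclear receptors such as ROR beta bind, to TGACGTCA, the cAMP response element, and to GGGCGG, the GC box.
Cdkn1a: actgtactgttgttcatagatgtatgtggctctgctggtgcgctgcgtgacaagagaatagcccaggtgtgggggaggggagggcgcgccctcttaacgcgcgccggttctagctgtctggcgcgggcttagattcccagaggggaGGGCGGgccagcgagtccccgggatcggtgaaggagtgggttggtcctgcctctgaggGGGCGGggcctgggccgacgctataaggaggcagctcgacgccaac
Htra1: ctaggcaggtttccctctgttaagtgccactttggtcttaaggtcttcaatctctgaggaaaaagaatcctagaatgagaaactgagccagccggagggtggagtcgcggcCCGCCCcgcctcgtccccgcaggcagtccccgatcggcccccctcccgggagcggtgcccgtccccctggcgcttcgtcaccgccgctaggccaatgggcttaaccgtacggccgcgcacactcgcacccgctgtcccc
Daam2: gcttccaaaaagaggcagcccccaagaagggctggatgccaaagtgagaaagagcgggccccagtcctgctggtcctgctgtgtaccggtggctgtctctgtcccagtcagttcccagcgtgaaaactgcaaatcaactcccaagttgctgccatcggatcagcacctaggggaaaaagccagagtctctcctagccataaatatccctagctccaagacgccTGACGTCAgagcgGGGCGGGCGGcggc
Paqr8 upstream start: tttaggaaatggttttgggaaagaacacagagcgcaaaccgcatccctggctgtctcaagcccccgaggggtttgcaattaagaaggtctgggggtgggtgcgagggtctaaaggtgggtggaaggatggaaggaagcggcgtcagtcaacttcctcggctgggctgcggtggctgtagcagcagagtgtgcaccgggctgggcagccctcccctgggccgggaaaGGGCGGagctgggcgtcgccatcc
Paqr8 downstream start: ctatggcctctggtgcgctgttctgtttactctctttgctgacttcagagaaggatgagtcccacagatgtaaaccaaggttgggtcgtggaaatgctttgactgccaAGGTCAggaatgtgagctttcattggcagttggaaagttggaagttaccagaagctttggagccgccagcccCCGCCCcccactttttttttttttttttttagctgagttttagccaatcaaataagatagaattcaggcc

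GGGCGG stood in a window of each gene, at -104 and -46 from the *Cdkn1a* start, -139 in *Htra1*, -14 and -10 in *Daam2*, where both matches overlap (-41 and -37 from the second *Daam2* start), and -24 and -70 in the *Paqr8* windows. GGGCGG is found in 32.7% of all 32851 promoter windows of this length, and in at least 1 window of 35.4% of all genes. TGACGTCA, which 1.55% of all windows hold, was found in *Daam2* at -27 (-54 from the second start). AGGTCA, held by 14.0% of all windows, was found in the downstream *Paqr8* window at -142. ACANNNTGT (5.84% of all windows), CACGTG (6.02%) and TATAAA (12.4%) did not occur in the 7 windows. A match is a description of the sequence only, and these data do not bear on binding there.

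Per length and in wild-type mice, the order of the levels was the same in all 7 tissue and strain groups, with *Htra1* highest, then *Paqr8*, *Daam2* and *Cdkn1a*. In C57BL/6J brain the mean level was 158 ± 2.01 TPM for *Htra1*, 98.5 ± 4.14 for *Paqr8*, 40.9 ± 1.71 for *Daam2* and 25.7 ± 2.07 for *Cdkn1a* (SD, n = 3 mice). In bulk tissue, fewer cells of a type and less RNA per cell cannot be told apart in this or any value below.

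*Cdkn1a* was highest in C57BL/6J spinal cord at 30.1 ± 2.57 TPM (SD, n = 3 here and in the next sentences on levels), followed by C57BL/6J brain. It measured 20.2 ± 3.86 in DBA/1J brain, 19.9 ± 1.81 in DBA/1J spinal cord, 19.2 ± 2.698 in cortex and 18.8 ± 2.83 TPM in cerebellum, which lie within each other's SD. *Cdkn1a* was lowest in hippocampus at 7.91 ± 0.544 TPM, apart from all other groups.

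*Htra1* measured 212 ± 13.4 TPM in C57BL/6J spinal cord and 200.4 ± 11.9 in DBA/1J spinal cord, levels closer than their SDs. It was lower in C57BL/6J brain (above), cerebellum (133 ± 11.1), DBA/1J brain (132 ± 8.15), cortex (129 ± 20.1) and hippocampus (129 ± 10.8), and the last 4 differed by less than their SDs.

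*Daam2* was also highest in spinal cord, with 73.2 ± 4.08 TPM in C57BL/6J and 66.4 ± 2.97 in DBA/1J. Cerebellum followed at 53.6 ± 6.19 TPM, then C57BL/6J brain. Hippocampus (33.8 ± 1.76), DBA/1J brain (32.3 ± 1.28) and cortex (30.8 ± 4.36) were not apart beyond their SDs.

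*Paqr8* was ordered first by strain and then by tissue. C57BL/6J spinal cord held 134 ± 9.66 TPM and C57BL/6J brain 98.5 ± 4.14, whereas DBA/1J spinal cord held 77.7 ± 1.302 and DBA/1J brain 51.3 ± 2.59. Among the dissected DBA/1J regions, *Paqr8* measured 87.8 ± 1.53 TPM in cerebellum, 47.3 ± 0.285 in hippocampus and 40.7 ± 3.69 in cortex.

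Differences between some of these groups were tested on the counts, not on TPM. The test was edgeR's quasi-likelihood test, with p-values adjusted over all genes by the Benjamini-Hochberg method and log2 fold changes ± SE. By mean CPM some groups lay in another order than by TPM. *Htra1* in cerebellum was then below DBA/1J brain, cortex and hippocampus. *Daam2* in hippocampus was below DBA/1J brain, and *Paqr8* in cerebellum was just below DBA/1J spinal cord. In C57BL/6J mice all 4 genes were higher in spinal cord than in brain. *Daam2* was higher by 0.86 ± 0.05 (adjusted p = 1.6e-08), *Paqr8* by 0.47 ± 0.07 (3.82e-05), *Htra1* by 0.45 ± 0.05 (4.36e-06) and *Cdkn1a* by 0.23 ± 0.08 (0.0283). The *Cdkn1a* call was lost without brain replicate 2 (0.21, adjusted p = 0.0983), brain replicate 3 (0.16, 0.106), cord replicate 2 (0.19, 0.123) or cord replicate 3 (0.21, 0.0787). Of all genes tested in that comparison, 56.9% passed.

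In DBA/1J mice 3 of the 4 genes were higher in spinal cord, against 50.8% of all genes that differed in either direction. *Daam2* was higher by 1.01 ± 0.04 (adjusted p = 7.92e-08), *Htra1* by 0.58 ± 0.04 (2.17e-06) and *Paqr8* by 0.57 ± 0.05 (1.12e-05). *Cdkn1a* did not pass the test, at -0.06 ± 0.14 (0.764), and its direction turned without brain replicate 2 (0.11) or cord replicate 1 (0.04). Without DBA/1J brain replicate 1, the library with nearly no cerebellum markers, the values were -0.13 for *Cdkn1a*, 0.56 for *Htra1*, 0.98 for *Daam2* and 0.53 for *Paqr8*. Whether the step from brain to cord differed between the strains was tested as an interaction, and none of the 4 genes passed (adjusted p = 0.637 for *Cdkn1a*, 0.585 for *Htra1*, 0.574 for *Daam2* and 0.790 for *Paqr8*), nor did any without DBA/1J brain replicate 1 (0.603, 0.692, 0.678 and 0.902).

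**Figure D1:**
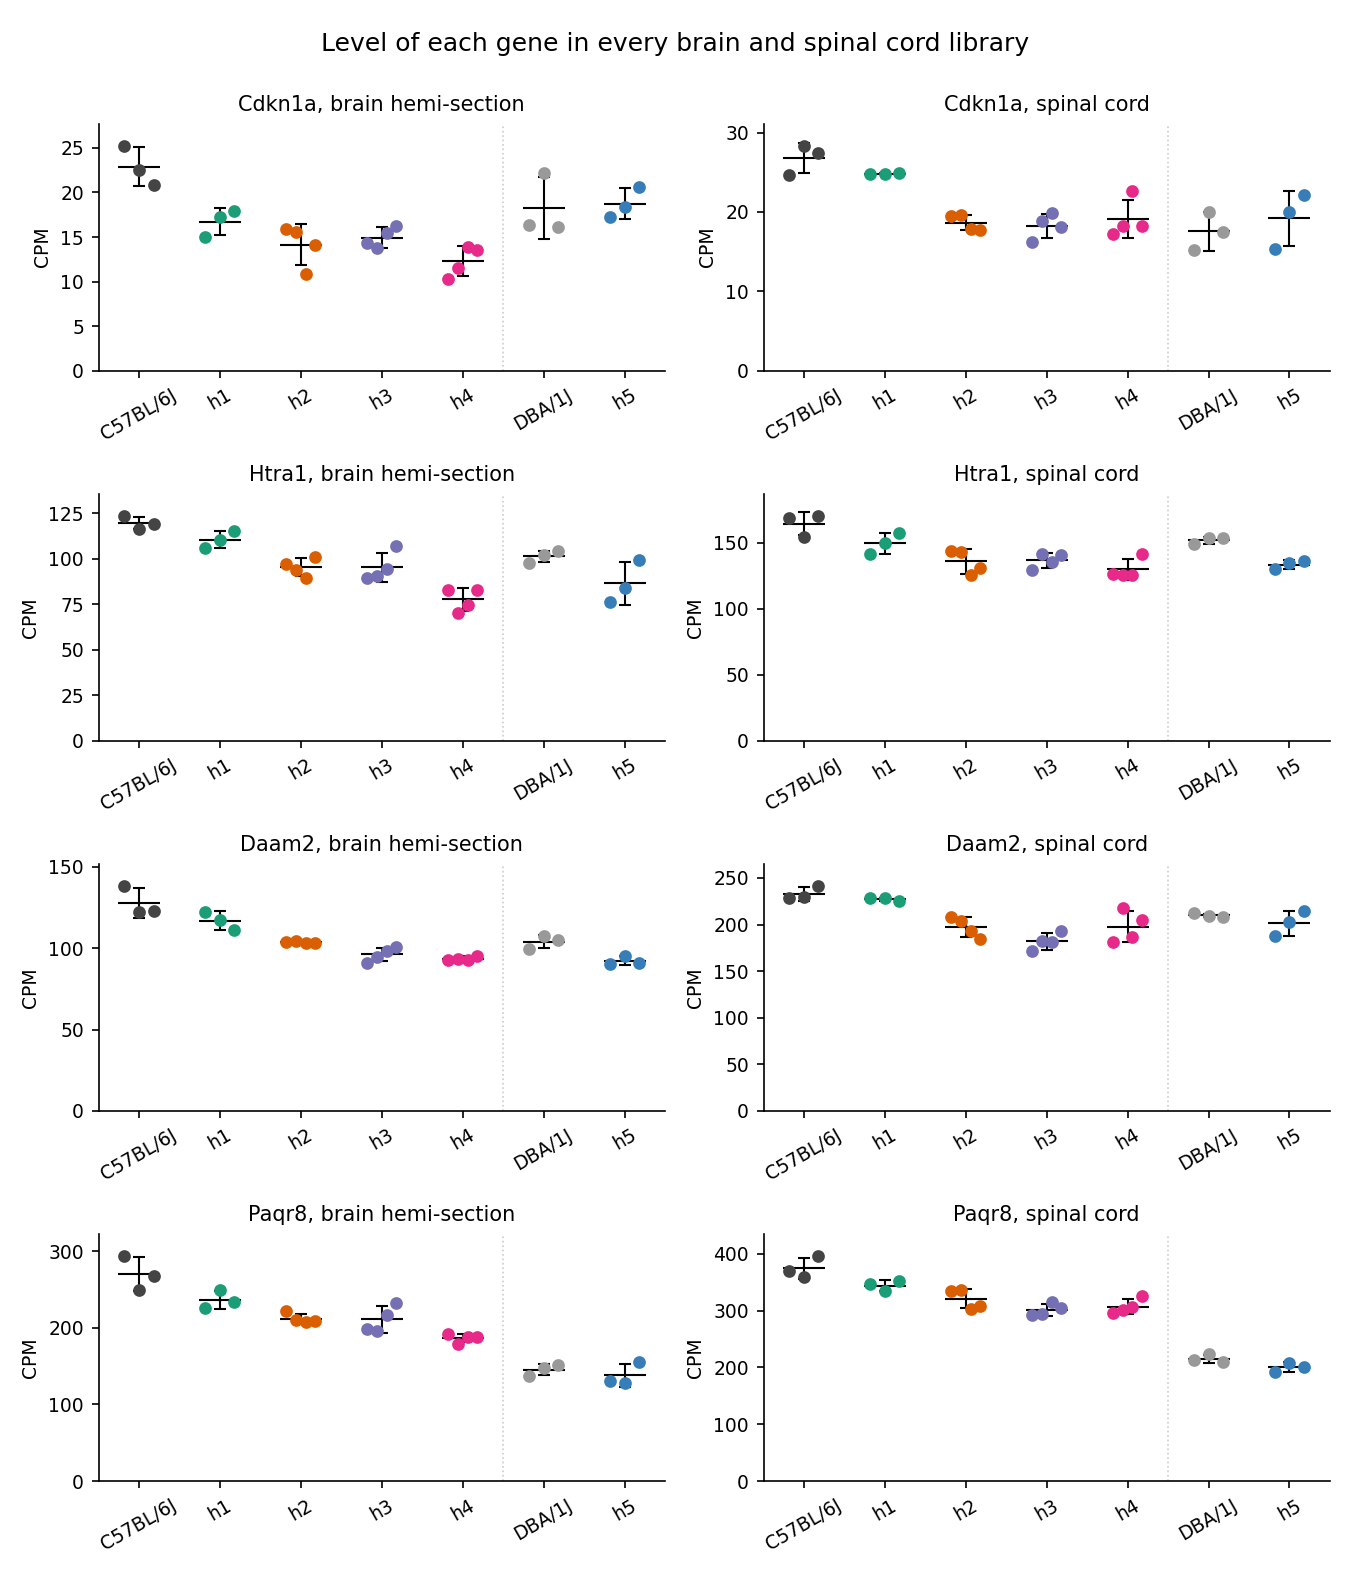
Level of each gene in CPM (vertical axis) in every brain and spinal cord library, by *Rorb* genotype (horizontal axis), where points are mice, long bars are group means and error bars are SD. The scale reaches higher in spinal cord than in brain for each gene, and *Paqr8* is lower in DBA/1J and h5, right of the dotted line, than in the other 5 groups.

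Between the dissected DBA/1J regions the calls differed among the 4 genes, although *Daam2* and *Paqr8* were called alike in each comparison. The genes were not tested against each other. *Cdkn1a* was lower in hippocampus than in cortex by 1.34 ± 0.12 on the log2 scale (adjusted p = 0.000183) and was the only member that passed in that comparison, where 20.6% of all genes did. *Paqr8* (0.15 ± 0.09, 0.303), *Daam2* (0.06 ± 0.12, 0.768) and *Htra1* (-0.07 ± 0.13, 0.75) were not called between hippocampus and cortex. Without cortex replicate 1, which was high for these 3 genes, *Paqr8* (0.25, adjusted p = 0.0233) and *Daam2* (0.23, 0.0192) were called higher in hippocampus, and *Htra1* turned to 0.09 (0.457).

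*Paqr8* and *Daam2* were higher in cerebellum than in both other regions. Against cortex, *Paqr8* was higher by 0.86 ± 0.10 (adjusted p = 4.72e-05) and *Daam2* by 0.55 ± 0.14 (0.00663), in a comparison that called 58.1% of all genes. *Cdkn1a* (-0.24 ± 0.13, 0.148) and *Htra1* (-0.19 ± 0.13, 0.248) were not called, although *Htra1* was without cortex replicate 3 (-0.30, adjusted p = 0.0466). Between hippocampus and cerebellum, where 64% of all genes differed, 3 members were lower in hippocampus. *Cdkn1a* differed by -1.12 ± 0.13 (2.32e-05), *Paqr8* by -0.73 ± 0.05 (1.33e-07) and *Daam2* by -0.51 ± 0.08 (0.000154), whereas *Htra1* differed by 0.09 ± 0.08 (0.333).

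The wild-type strains differed most in *Paqr8*. The C57BL/6J libraries used here are the controls of the h1 to h4 comparisons by which the genes were chosen, so that the strain tests are not independent of that choice. In brain, *Paqr8* measured 293, 249 and 268 CPM (scaled to the libraries' composition) in C57BL/6J and 137, 147 and 151 in DBA/1J. In spinal cord it measured 369, 359 and 396 in C57BL/6J and 212, 223 and 209.8 in DBA/1J. All DBA/1J values lay below all C57BL/6J values, and the log2 fold change of DBA/1J against C57BL/6J was -0.89 ± 0.07 in brain (adjusted p = 4.98e-05) and -0.80 ± 0.05 in cord (6.43e-08). These comparisons called 11.2% of all genes in brain and 21.3% in spinal cord.

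*Cdkn1a* was lower in DBA/1J in spinal cord (-0.61 ± 0.09, adjusted p = 0.000412) and was not called in brain (-0.32 ± 0.13, 0.175), although it was without DBA/1J brain replicate 2 (-0.49, 0.0277). *Daam2* was lower in DBA/1J in brain (-0.29 ± 0.06, 0.019) and in cord (-0.15 ± 0.04, 0.0168). *Htra1* was lower in brain (-0.23 ± 0.05, 0.0167) and was not called in cord (-0.11 ± 0.04, 0.0804). The interaction given above is the test of these tissue differences, and it passed for none of the 4 genes.

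The calls of the smaller strain differences depended on single libraries, whereas their direction did not turn. With each library left out in turn, *Htra1* in brain ranged from -0.27 to -0.20, and *Daam2* from -0.33 to -0.22 in brain and -0.16 to -0.12 in cord. *Htra1* in brain was not called without C57BL/6J replicate 1 (-0.20, adjusted p = 0.0528) or DBA/1J replicate 2 (-0.24, 0.0522), and it was called in cord without C57BL/6J replicate 2 (-0.16, 0.0214). *Daam2* was not called in brain without DBA/1J replicate 3 (-0.30, 0.0542), nor in cord without C57BL/6J replicate 3 (-0.12, 0.0594) or DBA/1J replicate 2 (-0.14, 0.0538). Without DBA/1J brain replicate 1, the brain differences were -0.25 for *Cdkn1a* (adjusted p = 0.326), -0.22 for *Htra1* (0.0302), -0.22 for *Daam2* (0.0339) and -0.86 for *Paqr8* (7.12e-05).

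The differences by which the genes were chosen follow, gene by gene. *Cdkn1a*, the cell cycle inhibitor, measured 25.2, 22.5 and 20.9 CPM in the brains of C57BL/6J mice. It measured 15.0, 17.2 and 17.9 in h1, and the 3 values lay below all controls. In h2 it measured 15.9, 15.5, 10.9 and 14.2, in h3 14.3, 13.7, 15.4 and 16.3 and in h4 10.3, 11.5, 13.9 and 13.5. All 12 values of h2, h3 and h4 were below all control values, and those of h4 were on average the lowest. The log2 fold change was -0.44 ± 0.09 (SE) in h1, -0.69 ± 0.11 in h2, -0.61 ± 0.08 in h3 and -0.89 ± 0.11 in h4. *Cdkn1a* did not share this in the DBA/1J background, where the brain held 16.4, 22.2 and 16.1 CPM in wild-type and 17.2, 18.4 and 20.6 in h5 mice (0.05 ± 0.13).

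In spinal cord, *Cdkn1a* measured 24.7, 28.3 and 27.5 CPM in C57BL/6J and 24.8, 24.7 and 24.9 in h1 (-0.11 ± 0.06), and these groups overlapped. It measured 19.4, 19.6, 17.9 and 17.8 in h2 (-0.52 ± 0.06), 16.2, 18.9, 19.8 and 18.1 in h3 (-0.56 ± 0.08) and 17.2, 18.2, 22.6 and 18.2 in h4 (-0.49 ± 0.09), in each case below every control. DBA/1J cords held 15.2, 20.001 and 17.5 and h5 cords 15.4, 19.997 and 22.2 CPM (0.13 ± 0.14), so that h5 was not below its control in either tissue.

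*Htra1*, the secreted protease, measured 123, 117 and 119 CPM in C57BL/6J brain and 106, 110.1 and 115 in h1 (-0.11 ± 0.05), where the highest mutant value was just below the lowest control. It measured 97.2, 93.9, 89.2 and 101.1 in h2 (-0.33 ± 0.05) and 89.6, 90.8, 94.3 and 107 in h3 (-0.32 ± 0.06). The h4 brains were lowest at 82.6, 70.5, 74.6 and 82.9 (-0.62 ± 0.06), and no value of h2, h3 or h4 reached a control value. In DBA/1J brains *Htra1* measured 97.9, 102 and 104 and in h5 brains 76.1, 84.0 and 99.4 CPM (-0.22 ± 0.09), with h5 replicate 3 among the controls.

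In spinal cord, *Htra1* measured 169, 154 and 170.1 CPM in C57BL/6J and 141, 149.9 and 157 in h1 (-0.14 ± 0.04), with one h1 value above the lowest control. The groups were apart for h2, at 144, 143, 125 and 130.5 (-0.27 ± 0.05), for h3, at 129, 141, 135 and 141 (-0.27 ± 0.05), and for h4, at 126, 126, 125 and 142 (-0.34 ± 0.05). *Htra1* was also without overlap in h5 cords, at 129.8, 134 and 136 against 149, 153 and 153 CPM in DBA/1J (-0.19 ± 0.03).

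*Daam2*, the formin, measured 138, 122 and 123 CPM in C57BL/6J brain and 122, 118 and 111 in h1 (-0.12 ± 0.07), which overlapped by 1 library. It measured 104, 105, 103 and 103 in h2 (-0.30 ± 0.05), 91.1, 94.6, 98.2 and 100.9 in h3 (-0.40 ± 0.05) and 92.6, 93.5, 93.1 and 95.6 in h4 (-0.44 ± 0.05). The mutant values of these 3 groups lay close together and below every control. *Daam2* was the member whose values did not overlap between h5 and DBA/1J brain, at 90.5, 95.4 and 90.9 against 99.7, 107 and 105 CPM (-0.17 ± 0.05).

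In spinal cord, *Daam2* measured 228, 229 and 241 CPM in C57BL/6J and 228, 228 and 225 in h1 (-0.03 ± 0.04), the smallest difference of any member in the C57BL/6J comparisons. It measured 208, 203, 193 and 185 in h2 (-0.24 ± 0.04), 171, 182, 182 and 193 in h3 (-0.35 ± 0.05) and 181, 218, 187 and 205 in h4 (-0.24 ± 0.05), all below every control. DBA/1J and h5 cords overlapped, at 212, 209 and 208 and 187, 203 and 214 CPM (-0.06 ± 0.05).

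*Paqr8*, the progestin receptor, measured 225, 249 and 234 CPM in h1 brain (-0.19 ± 0.07) against the C57BL/6J values given above, with the highest h1 value (249.0) just below the lowest control (249.1). It measured 221, 210.2, 207 and 208 in h2 (-0.35 ± 0.06), 199, 195, 217 and 233 in h3 (-0.35 ± 0.07) and 192, 179, 187 and 188 in h4 (-0.53 ± 0.06). As for *Htra1* and *Cdkn1a*, the h4 brains were lowest on average. *Paqr8* measured 130.5, 128 and 156 CPM in h5 brain (-0.06 ± 0.08), a range that spans the DBA/1J values.

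In spinal cord, *Paqr8* measured 346, 334 and 352 CPM in h1 (-0.12 ± 0.04), 335, 336, 304 and 309 in h2 (-0.22 ± 0.04), 293, 294, 315 and 304 in h3 (-0.31 ± 0.05) and 296, 300.5, 306 and 325 in h4 (-0.29 ± 0.04). Every one of these values was below every C57BL/6J cord. The h5 cords, at 192, 209 and 201, were below all DBA/1J cords as well (-0.10 ± 0.04). *Paqr8* had no overlap with its controls in 9 of the 10 comparisons, *Htra1* in 8, and *Cdkn1a* and *Daam2* in 7 each.

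**Figure D2:**
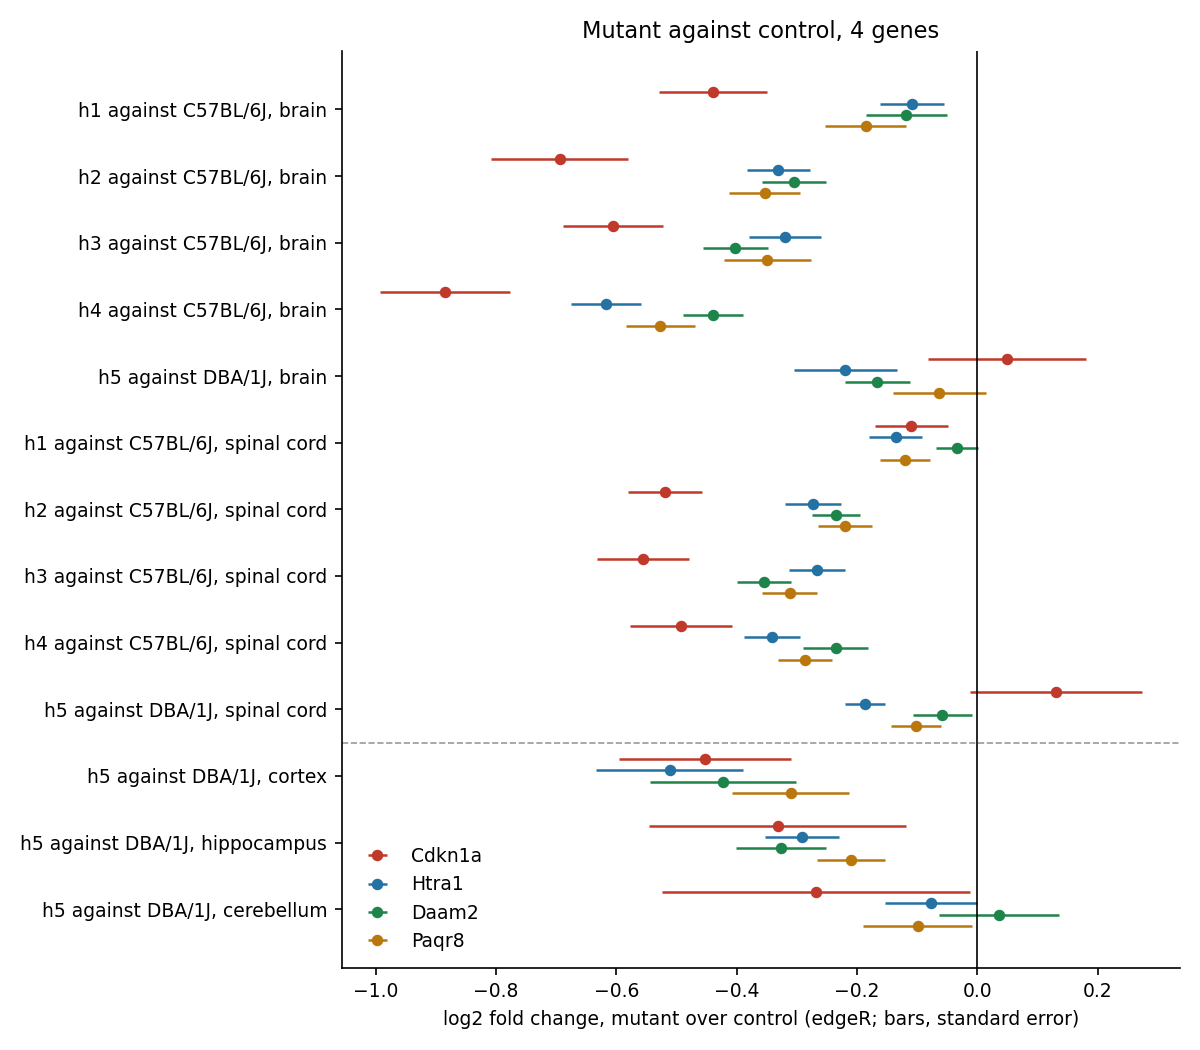
Log2 fold change of each gene in the 13 comparisons of a mutant with its wild-type group, with bars of 1 SE. The h2, h3 and h4 values are below 0 in brain and cord for all 4 genes, h4 brain is lowest for each, and the h5 values of brain and cord lie between -0.22 and 0.13.

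Because the genes were chosen on these contrasts, nothing is read from how many of them stand out there. For the record, all mutant values were below all control values for 3 members in h1 brain, where 5.58% of all genes did so, for 4 in h2 brain (4.01%), 4 in h3 brain (6.18%), 4 in h4 brain (7.07%) and 1 in h5 brain (6.68%). In spinal cord it was 1 member in h1 (8.74%), 4 in h2 (7.31%), 4 in h3 (7.08%), 4 in h4 (6.98%) and 2 in h5 (7.63%). The median log2 fold change of the 4 genes was -0.15 in h1, -0.34 in h2, -0.38 in h3, -0.57 in h4 and -0.11 in h5 brain, and -0.11, -0.25, -0.33, -0.31 and -0.08 in the cords in the same order. The h5 cord median was -0.04 without h5 replicate 1. The median over all genes lay between -0.0031 and 0.0050 in the 10 comparisons. Without DBA/1J brain replicate 1, the h5 brain values were -0.02 for *Cdkn1a*, -0.24 for *Htra1*, -0.20 for *Daam2* and -0.10 for *Paqr8*.

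The dissected regions of h5 and DBA/1J came from other mice than the brains and cords named in the choice of genes, although that choice was made with results of all libraries known. In cortex, *Htra1* measured 121, 93.1 and 84.0 CPM in DBA/1J and 71.9, 66.2 and 70.0 in h5 mice (-0.51 ± 0.12, adjusted p = 0.655). *Cdkn1a* measured 15.0, 16.7 and 18.4 in DBA/1J and 11.963, 10.1 and 14.4 in h5 cortex (-0.45 ± 0.14, 0.753). All h5 values of these genes were below all control values, with cortex replicate 1 of DBA/1J the highest *Htra1* value. *Daam2* measured 119.9, 87.8 and 86.3 against 70.5, 70.8 and 76.9 in h5 (-0.42 ± 0.12, 0.753), and *Paqr8* 129, 112 and 98.3 against 92.5, 85.7 and 94.0 (-0.31 ± 0.10, 0.753). With each cortex library left out in turn, the values ranged from -0.59 to -0.33 for *Cdkn1a* and -0.62 to -0.35 for *Htra1*. They ranged from -0.51 to -0.26 for *Daam2* and -0.40 to -0.21 for *Paqr8*.

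All 4 genes were thus without overlap in cortex, as were 6.56% of all genes, but none passed edgeR's quasi-likelihood test. That test called 0 of 17220 genes in cortex (0%), with 1106 at an unadjusted p under 0.05, whereas DESeq2 called 60 genes. *Htra1* was among the latter (DESeq2's adjusted p = 0.0251), and edgeR called it without DBA/1J cortex replicate 3 (-0.62, adjusted p = 0.0265). Without the h5 mouse whose label and *Ddx3y* level disagree, the cortex values were -0.59 for *Cdkn1a*, -0.52 for *Htra1*, -0.46 for *Daam2* and -0.34 for *Paqr8*, and again none was called.

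In hippocampus, *Htra1* measured 101.5, 86.3 and 94.7 CPM in DBA/1J and 78.6, 77.9 and 75.1 in h5 (-0.29 ± 0.06, adjusted p = 0.571). *Daam2* measured 100.9, 98.2 and 106 and 83.7, 72.5 and 88.1 (-0.33 ± 0.07, 0.674), and *Paqr8* 127, 125 and 123 and 105, 103 and 117 (-0.21 ± 0.06, 0.986). These 3 members did not overlap between the groups, where 4.43% of all genes had every h5 value below every control. *Cdkn1a* overlapped, with 5.88, 7.25 and 6.56 in DBA/1J and 5.19, 3.63 and 6.81 in h5 (-0.33 ± 0.21, 0.997). edgeR called none of the 4 and 0.0118% of all genes, while DESeq2 called *Htra1* (0.0402) and *Daam2* (0.0408). Without h5 replicate 3 the hippocampus values were -0.58 for *Cdkn1a*, -0.27 for *Htra1*, -0.39 for *Daam2* and -0.27 for *Paqr8*, none of them called.

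With all 6 mice, the groups overlapped in cerebellum for each of the 4 genes. *Cdkn1a* measured 12.4, 14.7 and 17.1 CPM in DBA/1J and 11.8, 7.35 and 18.1 in h5 (-0.27 ± 0.26, adjusted p = 0.948), the widest spread of that gene, relative to its mean, in any group. *Htra1* measured 84.0, 88.7 and 101.4 and 92.5, 80.3 and 90.0 (-0.08 ± 0.08, 0.949). *Daam2* measured 129, 160.5 and 159.5 and 148, 138 and 179 (0.04 ± 0.10, 0.981). *Paqr8*, at 210.0, 209.8 and 225 and 216, 168 and 224 (-0.10 ± 0.09, 0.948), likewise overlapped, whereas 4.65% of all genes had every h5 value below every control and 0.012% were called by edgeR. Without h5 replicate 3 the values were -0.63 for *Cdkn1a*, -0.09 for *Htra1*, -0.07 for *Daam2* and -0.17 for *Paqr8*, and none was called. The *Cdkn1a* values of the 2 other h5 mice lay below all DBA/1J values in cerebellum, as did those of 10.2% of all genes, and likewise in hippocampus (9.39%). The *Cdkn1a* values turned on single h5 mice, since without h5 replicate 2 they were -0.0023 in cerebellum and -0.12 in hippocampus.

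**Figure D3:**
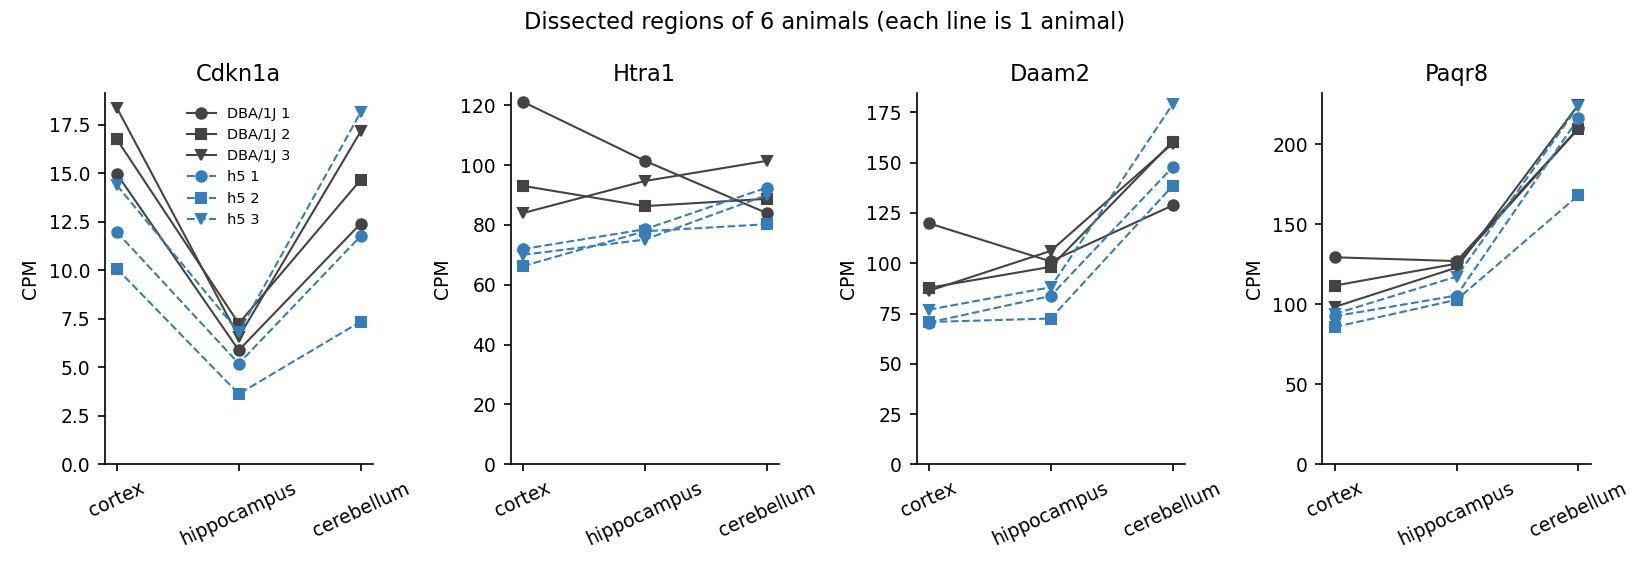
CPM of each gene in cortex, hippocampus and cerebellum of DBA/1J and *Rorb h5/h5* mice, where each line joins the 3 regions of 1 mouse (solid for DBA/1J, dashed for h5). The h5 points lie below all DBA/1J points for 4 genes in cortex and 3 in hippocampus, and overlap them for all 4 in cerebellum, where *Cdkn1a* overlaps through h5 replicate 3 alone.

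Whether the h5 difference itself was larger in one region than in another was tested as an interaction, and no member passed. Between cortex and cerebellum the differences were -0.45 ± 0.16 for *Htra1* (adjusted p = 0.734), -0.47 ± 0.18 for *Daam2* (0.734), -0.23 ± 0.15 for *Paqr8* (0.853) and -0.20 ± 0.34 for *Cdkn1a* (0.949). Their unadjusted p-values were 0.0129 for *Htra1* and 0.0192 for *Daam2* in edgeR's quasi-likelihood test, over 12 libraries in which 1099 of 18033 genes had an unadjusted p under 0.05. Without h5 replicate 3 the differences were -0.44 for *Htra1* (adjusted p = 0.853), -0.40 for *Daam2* (0.853), -0.18 for *Paqr8* (0.887) and 0.03 for *Cdkn1a* (0.994), whose direction thus turned. Choroid plexus markers, a sign of how the tissue was cut, ranged from 18.7 to 871 TPM in DBA/1J and 32.0 to 671 in h5 cortex, and from 1482 to 6169 and 234 to 5029 TPM in hippocampus. Their part in the region values was not tested.

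Variation between single animals was examined on the deviation of each library from the mean of its own group (log2 CPM), which removes the group differences used to choose the genes. The 24 mice with both tissues gave 16 relations, 6 pairs of genes in each tissue and each gene between the tissues, tested by permuting the deviations within groups 100000 times and adjusted over the 16. The permutation takes the mice of a group as exchangeable, although ages and identifiers differ within some groups. In h2 cord, *Htra1* deviated by 0.087 and 0.080 in the mice of 7.9 weeks and by -0.113 and -0.055 in those of 9.4 weeks. The other members had the same signs there. The part of age or identifier in the correlations was not tested. All 16 correlations were positive, from 0.20 to 0.76. One pair, *Htra1* and *Paqr8*, passed in both tissues, although in cord it no longer did after removal of labelled sex (r = 0.69, adjusted permutation p = 0.0506).

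In brain, *Htra1* and *Paqr8* deviated together with a Pearson's r of 0.76 (adjusted permutation p = 0.00576) and a Spearman's coefficient of 0.72 (0.00608, n = 24). In spinal cord, r was 0.71 (0.0352) and Spearman's coefficient 0.70 (0.0464, n = 24). The mouse farthest above its group mean in each tissue was the same for both genes. In brain, h5 replicate 3 was above its group mean by 0.21 for *Htra1* and 0.18 for *Paqr8*, and h3 replicate 4 by 0.17 and 0.14. Others moved more in one gene, such as h5 replicate 1 (-0.18 for *Htra1* and -0.08 for *Paqr8*) and C57BL/6J replicate 1 (0.04 and 0.12). In cord, h4 replicate 4 was above by 0.13 and 0.08, while h2 replicate 3 was below, at -0.11 and -0.08.

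The size of this relation rested in part on those mice. Without h5 replicate 3 and h3 replicate 4, r in brain was 0.60 (adjusted permutation p = 0.0537, n = 22), and without h4 replicate 4 and h2 replicate 3, r in cord was 0.61 (0.0537), so that neither passed. Leaving out each brain in turn gave 0.64 to 0.80, with every call kept, and each cord in turn 0.64 to 0.76, with the call lost for 8 of the 24 cords. In subsets of the groups the brain values were 0.62 in C57BL/6J and h1 (n = 6), 0.76 in h2, h3 and h4 (n = 12) and 0.89 in DBA/1J and h5 (n = 6), and the cord values 0.56, 0.81 and 0.60 in the same order. The direction was positive in all 6, and the small numbers left none of them past the threshold after adjustment.

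**Figure D4:**
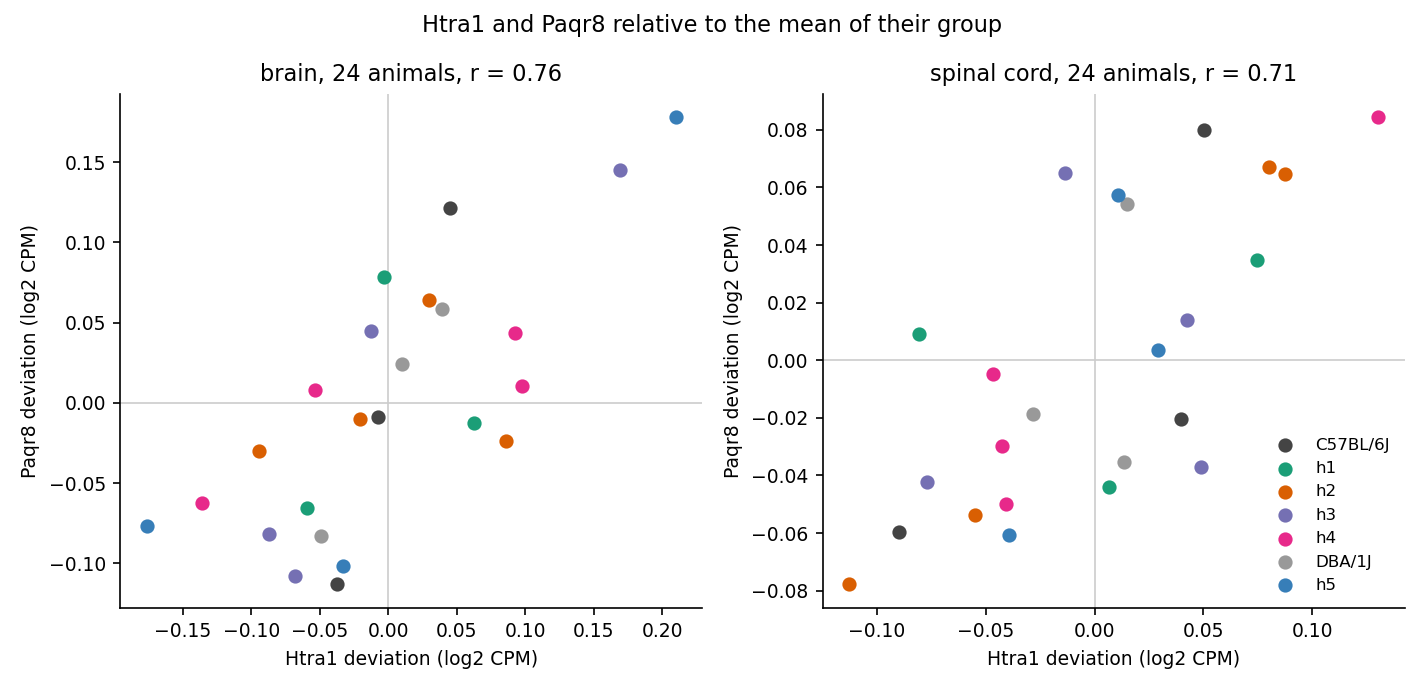
Deviation of *Paqr8* against that of *Htra1* from the group mean, as log2 CPM, for 24 brains and 24 spinal cords, with each mouse as a point coloured by group. Pearson's r is 0.76 in brain and 0.71 in cord.

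The other pairs did not pass after adjustment. In brain, *Cdkn1a* correlated with *Paqr8* at r = 0.46 (adjusted permutation p = 0.0611), with *Htra1* at 0.43 (0.0862) and with *Daam2* at 0.32 (0.172). *Daam2* correlated with *Paqr8* at 0.44 (0.172) and with *Htra1* at 0.24 (0.284). In cord, *Daam2* reached 0.51 with *Paqr8* (0.0862) and 0.50 with *Htra1* (0.0862), and *Cdkn1a* 0.45 with *Paqr8* (0.0862), 0.33 with *Daam2* (0.284) and 0.22 with *Htra1* (0.284). *Paqr8* was thus the gene with which each other member had its highest r in brain and cord, a comparison of estimates that was not tested.

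The Spearman values were close to these. In brain they were 0.45 for *Cdkn1a* with *Paqr8* (adjusted permutation p = 0.0618), 0.40 with *Htra1* (0.123) and 0.32 with *Daam2* (0.198), and for *Daam2* 0.46 with *Paqr8* (0.152) and 0.29 with *Htra1* (0.250). In cord they were 0.63 for *Daam2* with *Paqr8* (0.0563), 0.54 for *Daam2* with *Htra1* (0.0618), and for *Cdkn1a* 0.47 with *Paqr8* (0.0906), 0.32 with *Daam2* (0.253) and 0.23 with *Htra1* (0.268). Without the 2 libraries farthest from the median of the first gene, r ranged from 0.21 to 0.62 over these 10 pairs.

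Each gene was also followed between the tissues of the same mouse. *Cdkn1a* in brain correlated with *Cdkn1a* in cord at r = 0.53 (adjusted permutation p = 0.0624) and Spearman's coefficient = 0.49 (0.0831), and *Htra1* at 0.49 (0.0611) and 0.53 (0.0563). For *Daam2* r was 0.20 (0.284) and Spearman's coefficient 0.27 (0.250), and for *Paqr8* 0.20 (0.413) and 0.30 (0.253). None passed, so an animal's deviation in brain could not be shown to hold in its cord. Without the 2 farthest mice r was 0.49 for *Cdkn1a*, 0.50 for *Htra1*, 0.21 for *Daam2* and 0.22 for *Paqr8*. Within the 6 mice of C57BL/6J and h1 the sign turned for *Cdkn1a* (-0.59), *Daam2* (-0.28) and *Paqr8* (-0.04), whereas it stayed positive within h2, h3 and h4 (0.56, 0.55 and 0.46 for the same genes). Within DBA/1J and h5 it was 0.78 for *Cdkn1a*, 0.02 for *Daam2* and 0.01 for *Paqr8*.

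**Figure D5:**
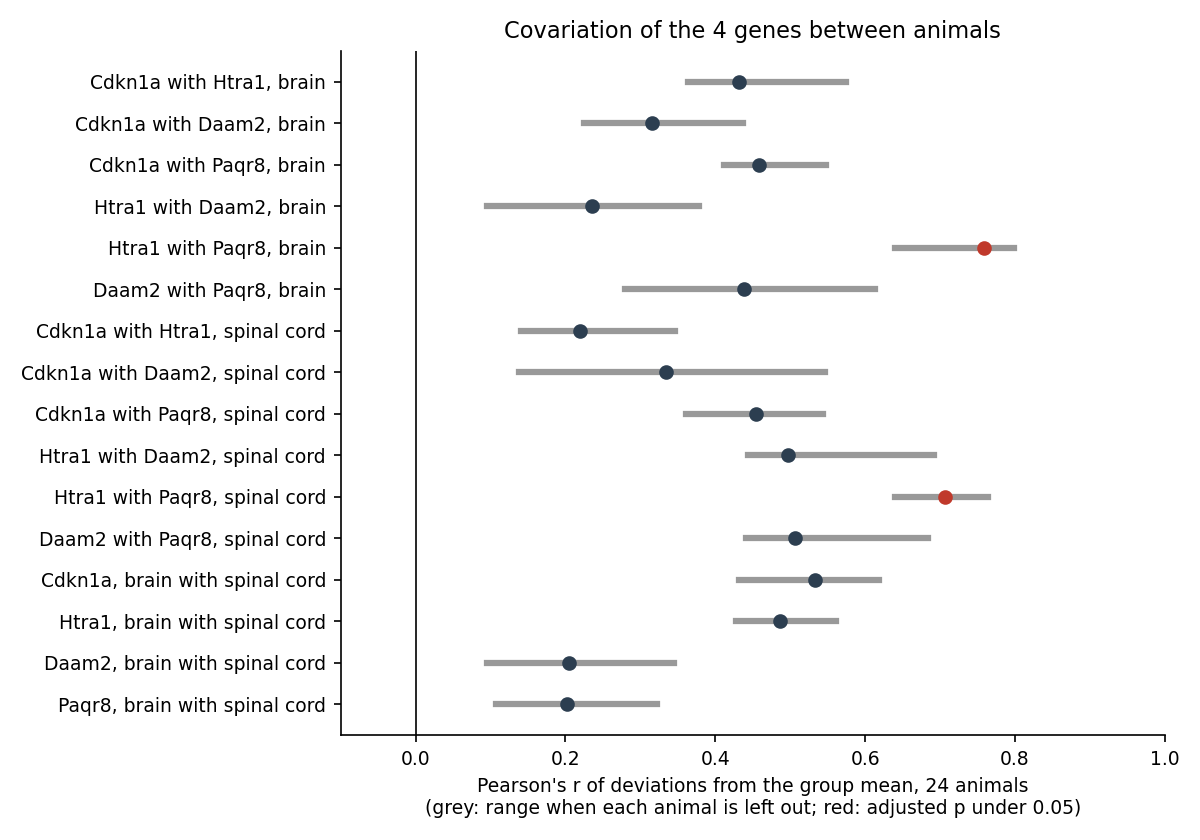
Pearson's r of the deviations from the group mean for the 16 relations between the 4 genes, in brain, in spinal cord and between both tissues of 24 mice. Points are r over all mice, in red where the adjusted p was under 0.05, and grey bars span the values with each mouse left out in turn. All values are above 0, and *Htra1* with *Paqr8* is highest in both tissues.

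In the 18 libraries of the dissected regions, which come from 6 mice and so are not independent, the deviations gave r of 0.74 for *Daam2* and *Paqr8*, 0.73 for *Htra1* and *Paqr8* and 0.69 for *Htra1* and *Daam2*. *Cdkn1a* gave 0.59 with *Paqr8*, 0.54 with *Daam2* and 0.09 with *Htra1*. Without h5 replicate 3, 15 libraries of 5 mice gave 0.64, 0.85 and 0.80 for the first 3 pairs in that order, and 0.35, 0.21 and 0.09 for *Cdkn1a* with *Paqr8*, *Daam2* and *Htra1*. These are descriptions, since the 3 regions of a mouse share its depth of dissection and handling.

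Over the deviations of all 66 libraries and 14653 genes of at least 1 CPM on average, the gene most like *Htra1* was *Paqr8* (r = 0.74), followed by *Cyp2j9* (0.67), *Gjb6* (0.66), *Hepacam* (0.66) and *Kcnj16* (0.63). *Gjb6* encodes the gap junction protein connexin 30 and *Hepacam* a cell adhesion protein, both known from astrocytes. For *Paqr8* the order was *Zcchc24* (0.75), *Htra1* (0.74), *Gjb6* (0.73), *Mfsd2a* (0.71) and *Tns3* (0.70), where *Mfsd2a* is the lipid transporter of the blood-brain barrier. *Tns3*, a tensin, was also the gene most like *Daam2* (0.77), before *Glul* (0.75), which encodes glutamine synthetase, *Fbxw8* (0.73), *Lrch3* (0.67) and *Tmem204* (0.67). Without h5 replicate 3 of the dissected regions (63 libraries), *Hepacam* and *Kcnj16* were no longer among the first 5 of *Htra1*. *Tns3* likewise left the first 5 of *Paqr8*, and *Lrch3* and *Tmem204* those of *Daam2*.

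*Cdkn1a* had other neighbours. The genes most like it were *Pdk4* (0.76), a kinase that inhibits pyruvate dehydrogenase and that glucocorticoids induce, *Spred2* (0.74), an inhibitor of Ras signalling, *Arid5b* (0.71), *Gpt2* (0.70) and *Sfpq* (0.70). Among all genes, *Paqr8* ranked 125 by likeness to *Cdkn1a* (0.53), *Daam2* 304 (0.46) and *Htra1* 2524 (0.21), with a median over all genes of -0.01. Without the 3 libraries of h5 replicate 3 of the dissected regions (63 libraries), *Paqr8* ranked 295 (0.41), *Daam2* 1497 (0.26) and *Htra1* 1645 (0.24), and of the 5 neighbours of *Cdkn1a* named here *Spred2* (0.64) and *Pdk4* (0.61) were still among the first 5. *Daam2* and *Paqr8* ranked close to each other from both sides, at 30 for *Paqr8* by likeness to *Daam2* and 23 for *Daam2* by likeness to *Paqr8* (0.61), and at 120 and 56 without that mouse (0.53). *Htra1* and *Paqr8* were each the other's nearest gene without it (0.79). These values rest on points that share libraries, depth and dissection, and carry no test.

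Over the 20 group means, which hold the tissue and strain differences and also the mutant differences by which the members were chosen, other genes came first. *Cdkn1a* was most like *Utrn* (0.90), *9430041J12Rik* (0.89), *Chml* (0.88) and *Tshz1* (0.88). *Htra1* was most like *Gpld1* (0.95), *Fermt2* (0.95), *Nde1* (0.94), *Lap3* (0.94) and *Adipor2* (0.94), an adiponectin receptor of the same family as *Paqr8*. *Daam2* was most like *Desi1*, *Plcd4*, *Pnpla2*, *Luzp1* and *Timm17a* (0.98 to 0.97), and *Paqr8* most like *Dnajc3*, *Ptpn11*, *Rbl2*, *Mrps5* and *Lysmd1* (0.98 to 0.97). The genes named here as nearest to each member by group means were thus other genes than those nearest by single animals. Between the members, r of the group means was 0.90 for *Htra1* and *Daam2*, 0.83 for *Daam2* and *Paqr8* and 0.80 for *Htra1* and *Paqr8*, and 0.61 to 0.69 for *Cdkn1a* with the others, values that the choice of the members in part builds in.

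Other genes of the members' pathways were followed through lists that exclude the members. Of 22 glucocorticoid-induced genes, 20 calls were made over the 10 mutant comparisons of brain and spinal cord, all of them lower in the mutants. *Plin4*, a lipid droplet protein, was lower in h2 brain by a log2 fold change of -1.19 ± 0.17 and in h3 brain (-1.32 ± 0.20), and *Tsc22d3*, a leucine zipper protein induced by glucocorticoids, in h4 brain (-0.48 ± 0.07). The metallothionein *Mt2* was lower in h2 brain (-0.55 ± 0.08) and in the cords of h2 (-0.59 ± 0.06), h3 (-0.52 ± 0.08) and h4 (-0.52 ± 0.07).

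In the h2 and h4 cords, *Sgk1*, a kinase that glucocorticoids induce, was lower (-0.81 ± 0.14 and -0.93 ± 0.13), and *Klf9*, a transcription factor, was lower too (-0.27 ± 0.04 and -0.20 ± 0.04). *Tsc22d3*, *Plin4*, *Mt1* and *Mt2* were called lower in the cords of all 3 lines, which gives 6 of 22 in h2, 4 in h3 and 6 in h4. Called genes of all tested made up 0.136% in h2 brain, 0.164% in h3 brain and 0.703% in h4 brain, and 2.09%, 1.01% and 1.75% in the cords of h2, h3 and h4. In cord, h1 called 0.289% of all genes and h5 0.00581%, and in brain h1 and h5 called 0% each, with 745 and 1003 genes at an unadjusted p under 0.05 and 21 and 64 called by DESeq2. None of the list was called in these 4. The median log2 fold change of the list lay between -0.26 and -0.04 over the 10 comparisons, and DESeq2 made 31 calls, all lower. This list was chosen with earlier results of these libraries known, so its direction is not independent evidence.

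The lists nearest to the members' known functions showed few calls. Of 20 p53 targets, such as *Mdm2* and *Ccng1*, none was called by edgeR in the 10 comparisons, and the list's median lay between -0.04 and 0.05. None of 21 CDK inhibitors and their partners was called (medians -0.03 to 0.09), nor any of 17 HtrA proteases, TGF-beta genes and matrix substrates (-0.02 to 0.12). DESeq2 made 2, 3 and 1 calls in these lists.

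Of 22 partners of *Daam2* in Wnt signalling and actin assembly, *Vangl2*, a planar polarity protein, was higher in h2 cord (0.27 ± 0.06) and *Fzd3*, a Wnt receptor, lower in h4 cord (-0.28 ± 0.05). Of the 12 receptors and binding proteins related to *Paqr8*, *Adipor2* and *Mmd* were lower in the cords of h2 (-0.40 ± 0.08 and -0.19 ± 0.05) and h4 (-0.36 ± 0.08 and -0.24 ± 0.05), and *Paqr6*, another membrane progestin receptor, was higher in h4 cord (0.24 ± 0.06), beside the 2.09% of all genes called in h2 cord and 1.75% in h4 cord.

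Between the wild-type strains, *Paqr7*, membrane progestin receptor alpha, was lower in DBA/1J like *Paqr8*, by a log2 fold change of -0.61 ± 0.07 in brain and -0.63 ± 0.04 in cord. *Cdkn1b*, which encodes the inhibitor p27, was lower in DBA/1J by -0.32 ± 0.08 in brain and -0.21 ± 0.06 in cord, and *Ccnd1*, cyclin D1, by -0.87 ± 0.07 and -0.46 ± 0.08. *Pdk4* went the other way, at 0.70 ± 0.09 in brain and 1.17 ± 0.12 in cord, as did *Sgk1* (0.86 ± 0.14 and 1.13 ± 0.20), whereas *Klf9* was lower (-0.73 ± 0.08 and -0.83 ± 0.05). Of the 22 glucocorticoid-induced genes, 3 were higher and 2 lower in brain, and 5 higher and 1 lower in cord. Of the 12 relatives of *Paqr8*, 2 were called in brain and 3 in cord, all lower, and of the 21 CDK genes 3 lower in brain, and 3 lower and 1 higher in cord. These counts stand against the 11.2% (brain) and 21.3% (cord) of all genes called in either direction.

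Markers of glial and other cell types were set beside the members. Astrocyte markers (6 genes, none at 0) summed to 1406 to 1447 TPM in C57BL/6J brains, 1332 to 1418 in h1, 1324 to 1396 in h2, 1315 to 1386 in h3 and 1298 to 1445 in h4. Mature oligodendrocyte markers (8 genes, none at 0) summed to 6045 to 6934 TPM in C57BL/6J, 6053 to 7022 in h1, 5358 to 6502 in h2, 4439 to 6160 in h3 and 4828 to 6227 in h4 brains. The astrocyte sums of h2 and h3 thus lay narrowly below those of all controls (up to 1396 and 1386 against at least 1406 TPM), while those of h1 and h4 overlapped them. TPM are shares of a library. A single gene without a symbol took 3.67% to 9.82% of TPM in C57BL/6J brains and 4.97% to 10.3% in h2 brains. Its part in so small a gap was not tested, nor was the share of all genes with such a gap in TPM examined. The oligodendrocyte sums of h2, h3 and h4 reached below the controls but overlapped them.

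In the mutant comparisons, few markers were called. Of the 6 endothelial markers, 1 was called, *Ly6c1*, which was lower in h2 and h4 brain (-0.42 ± 0.07 and -0.46 ± 0.07) and in the cords of h2 (-0.28 ± 0.06), h3 (-0.31 ± 0.07) and h4 (-0.39 ± 0.06). The medians of the endothelial list in these 5 comparisons lay between -0.06 and 0.0043, with 3 or 4 of the 6 genes below 0. Of the 8 markers of mature oligodendrocytes, *Opalin* was higher in h4 brain (0.39 ± 0.07) and in h2 and h4 cord (0.34 ± 0.07 and 0.43 ± 0.09), and *Ermn* was lower in h3 cord (-0.26 ± 0.06). In h4 brain the other 7 oligodendrocyte markers were below 0 and not called, with a median of -0.11 over the 8. Of the 6 astrocyte markers, *Aqp4* (-0.17 ± 0.04) and *Slc1a2* (-0.10 ± 0.03) were lower in h2 cord, where the list's median was 0.02, and *Slc1a3* was higher in h4 cord (0.27 ± 0.04). The shares of all genes called in these comparisons, given above, ran from 0.136% in h2 brain to 2.09% in h2 cord. The part of these markers in the members' values was not tested.

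Across the 24 mice, the mean deviation of each list was also related to each member, 160 relations in all, and none passed after adjustment (smallest adjusted permutation p = 0.210). *Paqr8* and *Htra1* in brain had r of 0.70 (0.210) and 0.63 (0.308) with the astrocyte markers, but 0.08 and 0.13 in cord. *Daam2* had r of -0.71 with the neuronal markers in brain (0.210) and -0.60 in cord (0.308). *Cdkn1a* had r of 0.06 with the astrocyte markers in each tissue and -0.25 in brain and 0.31 in cord with those of mature oligodendrocytes.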

How the data were processed

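Total RNA of 66 mouse tissue samples was made into polyA mRNA libraries and sequenced as paired ends by the authors. They trimmed the reads, aligned them with STAR and estimated gene expression with RSEM on GRCm38 (mm10), and the submitters' processing notes also name FastQC and Trim Galore, without versions. The deposited expected counts are RSEM estimates of fragments per gene, with no normalization. The TPM values, also deposited by the authors, are scaled by RSEM to transcript length and to the library's total. The annotation version is not given in the sources used here. Symbols were joined to 41407 of the 45706 identifiers.

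After rounding (5.07% of expected counts were not whole), genes were tested by the quasi-likelihood test of edgeR 4.0.16 in R 4.3.3, after TMM scaling and filterByExpr, with Benjamini-Hochberg adjustment at 0.05, each comparison on its own groups without covariates. CPM are TMM-scaled over all libraries, and log2 CPM use a prior count of 2. Interactions were fitted over 12 libraries, or without the library or mouse named. Covariation was tested two-sided with 100000 permutations within groups. Alternatives were DESeq2 1.42.0, its size factors, no count filter, labelled sex, a replicate block, identifier series, log2(TPM + 1), removal of oligodendrocyte markers and each library left out. The fits were tested on simulated data. Columns left unused numbered 0, and no library repeated another (78 pairs compared).

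The members and all gene lists were chosen with earlier results of these data known. The text names the members, members of the lists, *Rorb*, *Ddx3y*, *Xist* and, for each member, the 5 genes with the highest r of deviations over 66 libraries and of means over 20 groups, of which 1 gene is not reported here. Replicate numbers name the same mouse across tissues, but the tissue values printed are from the fit without the animal as a block, and the blocked fit is an alternative. Between genotypes they are bare numbers, and same-numbered deviations correlated above 0.1 in every pair in h1 against C57BL/6J brain alone (0.113 to 0.198). Promoter sequences are from RefSeq on GRCm38.p6.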

Additional observations from a re-analysis of the deposited data

Results flagged for a closer look

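*Htra1* in the spinal cord of *Rorb h4/h4* replicate 4 measured 142 CPM and stood apart from the other 3 cords of its group, which lay between 125 and 126 CPM. Its gap to the nearest of them exceeds the 95% limit of Dixon's test for 4 samples. It was the only such case among 24 group checks (4 genes in 6 groups of 4 mice), of which chance flags about 1 in 20. *Paqr8* was also highest in that library, at 325 CPM against 296 to 306 CPM in the others. Without that library, *Htra1* in h4 cord was -0.38 on the log2 scale against C57BL/6J, and r of *Htra1* with *Paqr8* in cord was 0.64 (adjusted permutation p = 0.0630).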

How the results depend on the processing

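With the replicate block, members called between DBA/1J and C57BL/6J brain fell from 3 to 1, although numbers there pair no mice, and in the paired tissue comparisons it changed no count of members called. DESeq2 called 1 member in h5 cortex and 2 in h5 hippocampus against 0. Calls in the gene lists were summed over the 10 mutant comparisons of brain and cord, so that a gene can count more than once. DESeq2 made 31 such calls in the glucocorticoid-induced list, 2 in p53, 3 in CDK, 1 in HtrA and 6 in the *Daam2* partner list. edgeR made 20, 0, 0, 0 and 2 in the same order. Leaving out each library in turn, members called ranged from 0 to 1 in h5 cortex and from 1 to 3 between hippocampus and cortex. Signs of values near 0 turned between such fits. In h5 cerebellum the ranges were -0.13 to 0.012 for *Htra1*, -0.071 to 0.11 for *Daam2* and -0.17 to 0.016 for *Paqr8*, which was also at 0.0032 with identifier series as a block. Between DBA/1J cord and brain the range was -0.16 to 0.11 for *Cdkn1a*, and between hippocampus and cortex -0.18 to 0.091 for *Htra1* and -0.019 to 0.23 for *Daam2*. Without h5 replicate 3, chosen after seeing the data, the h5 difference of *Cdkn1a* against that in cerebellum turned to 0.034 in cortex and 0.051 in hippocampus. The cause was not tested.

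Leaving out each library moved r from 0.36 to 0.57 for *Cdkn1a* with *Htra1* in brain, from 0.41 to 0.55 for *Cdkn1a* with *Paqr8* in brain, and in cord from 0.14 to 0.55 for *Cdkn1a* with *Daam2*, 0.36 to 0.54 for *Cdkn1a* with *Paqr8*, 0.44 to 0.69 for *Htra1* with *Daam2*, 0.64 to 0.76 for *Htra1* with *Paqr8* and 0.44 to 0.68 for *Daam2* with *Paqr8*. Between tissues it moved from 0.43 to 0.62 for *Cdkn1a* and 0.43 to 0.56 for *Htra1*. In each, at least 1 omission moved the call. Removal of oligodendrocyte markers brought r past the threshold for *Cdkn1a* with *Htra1* (0.52) and with *Paqr8* (0.60) in brain, *Cdkn1a* with *Paqr8* (0.54) and *Daam2* with *Paqr8* (0.53) in cord, and *Cdkn1a* (0.55) and *Htra1* (0.56) between tissues. Log2(TPM + 1) did so for *Htra1* with *Daam2* (0.68) and *Daam2* with *Paqr8* (0.71) in cord and *Cdkn1a* between tissues (0.58), and removal of labelled sex for *Cdkn1a* with *Paqr8* in brain (0.55). *Htra1* with *Paqr8* in cord was at 0.69 after removal of labelled sex and no longer passed. Without the 2 farthest libraries it was at 0.60 in brain and 0.61 in cord, and in the subsets C57BL/6J with h1, h2 to h4, and DBA/1J with h5 at 0.62, 0.76 and 0.89 in brain and 0.56, 0.81 and 0.60 in cord, none of which passed. Within C57BL/6J and h1 alone, r turned for *Htra1* with *Daam2* in brain (-0.040), *Cdkn1a* with *Htra1* in cord (-0.44), and between tissues for *Cdkn1a* (-0.59), *Daam2* (-0.28) and *Paqr8* (-0.038). Groups of 3 or 4 mice limit what could be called.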
